A study of Monomorium pharaonis with 23 samples.

Results

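This account concerns 40 genes of the pharaoh ant (Monomorium pharaonis) whose transcripts were very high in the heads of 2 nurse libraries, nurse 3 and nurse 4, and low in most other libraries. They were chosen from a table of 12648 genes in 23 libraries. A gene was scored if it had at least 5 RPKM in both nurse 3 and nurse 4, where RPKM is the number of reads on a gene scaled by its length in kilobases and by the reads of its library in units of 1000000. The score was the lower of its values in nurse 3 and nurse 4, minus the median of the other 12 nurses, on the log2(RPKM + 1) scale. Of 6421 scored genes, the 40 with the highest score were taken. The height of these genes in nurse 3 and nurse 4 over the other nurses is therefore the reason they were chosen, and it is given as a description with no test.

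Workers of social insects divide labour by task. Nurses stay in the nest and feed and clean the larvae, and foragers leave it to collect food. In many ants and bees young workers nurse and older ones forage. A worker's head holds the brain, the antennae and eyes, the mandibular muscles, several exocrine glands, fat body and cuticle, so RNA from a whole head is a mixture of all of these.

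The study compared 9 libraries of foragers, caught while foraging, with 14 libraries of nurses, caught while nursing larvae. Source colonies had 10 queens, 300 to 400 workers and 300 to 400 brood. All were kept alike at 27 °C and 50% relative humidity with 12 hours of light and 12 of darkness. The replicate numbers are those of the submitters. The age of the workers, the colony and the number of heads behind a library were not stated in the sources used here. Any p-value accordingly reflects the spread among libraries, which may be technical.

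Read totals recovered from the RPKM values ran from 3.68 to 31.3 M reads (M, 1000000). Nurse 3 was among the deepest libraries at 30 M and nurse 4 among the shallower nurses at 8.86 M, so the high libraries do not share a depth. No library repeated another, with a chi-square per degree of freedom of at least 7.6 over all 253 pairs. The genes are known by identifier only: 37 of the 40 matched the annotation used for names, all 37 as protein-coding genes, and none had a symbol or a product name. Cell types and tissues could therefore not be checked by markers. In bulk RNA of this kind, more cells of a type and more RNA per cell cannot be told apart.

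The scores had a long upper tail. The highest was 7.30, the 40th 2.87, and the median over the 40 genes 4.51, beside a median of -0.23 over all 6421 scored genes. A score is a difference of log2 values, so that of the first gene corresponds to a ratio of 158 in RPKM + 1. The limit did not fall in a gap. Just inside it were LOC105830954 at 3.12, LOC105835353, LOC105834123 and LOC105837812 at 3.09 and LOC105828829 at 2.87. Just outside were LOC105833532 at 2.86, LOC105836460 at 2.76, LOC105840042 at 2.72, LOC105829724 at 2.71 and LOC105837063 at 2.69.

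A tail of this length was seen only in the direction of the rule. Turned around, the score measures how far the higher of nurse 3 and nurse 4 lay below the median of the other 12 nurses, among the 6790 genes with a median of at least 5 RPKM in those 12. The highest value was then 1.36, with 2 genes over 1 and 0 over 2. In the direction of the rule 101 genes scored over 1 and 66 over 2. The turned score has a ceiling that the score of the rule lacks, since a gene cannot fall further than its own median level allows. The directions are therefore not compared on equal terms, and the absence of a matching low set is not read from them. By the score of the rule, which takes the lower of nurse 3 and nurse 4, 64 genes were under -1 and 8 under -2. This is a description of these libraries, not a test.

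**Figure D1:**
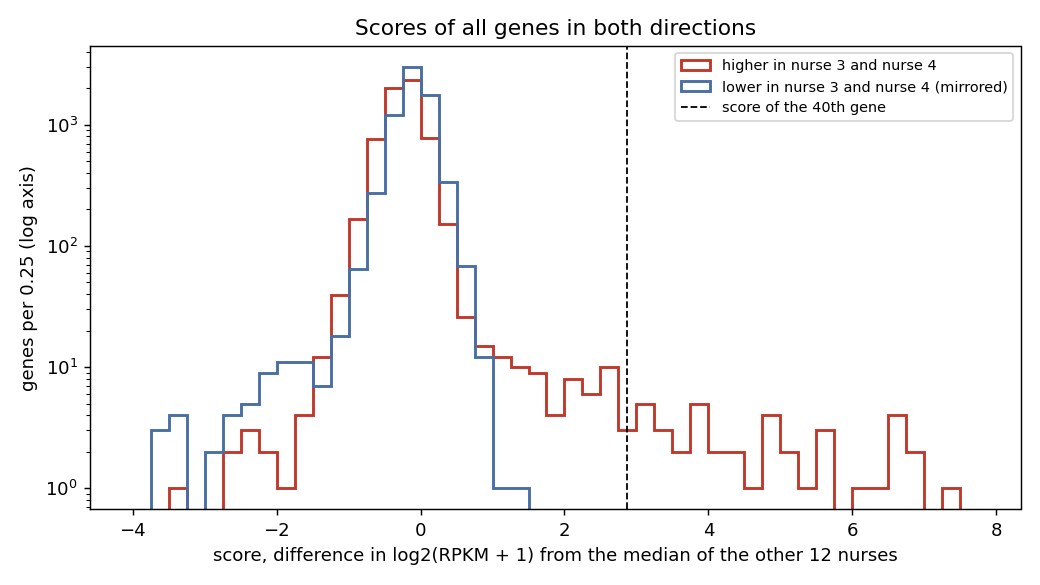
Number of genes (log axis) against the score on the log2(RPKM + 1) scale. Red is the lower of nurse 3 and nurse 4 minus the median of the other 12 nurses, over all 6421 scored genes. Blue is the score turned around, the median of those 12 minus the higher of nurse 3 and nurse 4, over 6790 genes. The red tail reaches 7.30 and the blue one ends at 1.36; the dashed line marks the 40th gene at 2.87.

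The levels of the genes in nurse 3 and nurse 4 ranged widely, from 7.78 RPKM for LOC105828829 in nurse 4 upwards. Of the 40, 21 reached 100 RPKM in nurse 3 and 21 in nurse 4, beside 4.19% and 3.55% of all genes in the table, while no forager had more than 1 at that level and no other nurse more than 4. Together they held 3.11% of the summed RPKM of nurse 3 and 5.36% of that of nurse 4. In the other nurses this share ran from 0.00982 to 0.581%, and in foragers from 0.0161 to 0.163%.

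LOC105840348 was the most abundant of them. It had 8523 RPKM in nurse 4, where it ranked 1 of all genes, and 2025 in nurse 3, where it ranked 15. The other nurses lay between 1.47 and 561 RPKM with a median of 19.3, and the foragers between 2.36 and 85.2 with a median of 37.8. Nurse 4 was 4.21 times as high as nurse 3, and nurse 3 was 3.61 times as high as the next library, nurse 8. In RPKM, the reads of an abundant gene lower every other value of its library, here only slightly. LOC105840348 took 69996 of 8858911 recovered reads in nurse 4 and 56360 of 30018368 in nurse 3.

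LOC105830102 had the highest score. It was at 631 RPKM in nurse 3 and 378 in nurse 4, between 0.419 and 84.4 in the other nurses with a median of 1.40, and between 0.869 and 4.23 in foragers with a median of 1.62. Its value in nurse 4 was 89.4 times that of the highest forager. LOC105830975 was nearly equal in the 2 libraries, at 280 RPKM in each, with 0.431 to 38.1 in the other nurses and 0.438 to 2.28 in foragers. No other library overlapped with nurse 3 or nurse 4 for either gene.

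LOC105830008 was at 752 RPKM in nurse 3 and 408 in nurse 4, at 0.622 to 73.7 in the other nurses (median 2.34) and at 0.601 to 7.06 in foragers (median 3.39). LOC105832896 was at 1119 and 1033 RPKM in nurse 3 and nurse 4, at 1.39 to 162 in the other nurses (median 8.86) and at 2.44 to 63.4 in foragers (median 12.0). It is thus not silent elsewhere: its lowest library still had more than 1 RPKM. LOC105829627 stood further from the rest than any other gene of the 40, at 268 and 291 RPKM against at most 19.0 in any other library, 14.1 times below the lower of its 2 high values.

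LOC105838395 was at 463 RPKM in nurse 3 and 231 in nurse 4, and at 0.469 to 81.0 in the other nurses. Its foragers lay between 0.594 and 52.7 RPKM, and the highest of them, forager 7, was far above their median of 3.38. LOC105828709 was the other way round between the 2 libraries, at 220 RPKM in nurse 3 and 443 in nurse 4, with at most 18.1 in the other nurses and 15.5 in foragers, again in forager 7. LOC105839834 was at 139 and 125 RPKM, with at most 22.9 in the other nurses and 2.45 in foragers.

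**Figure D2:**
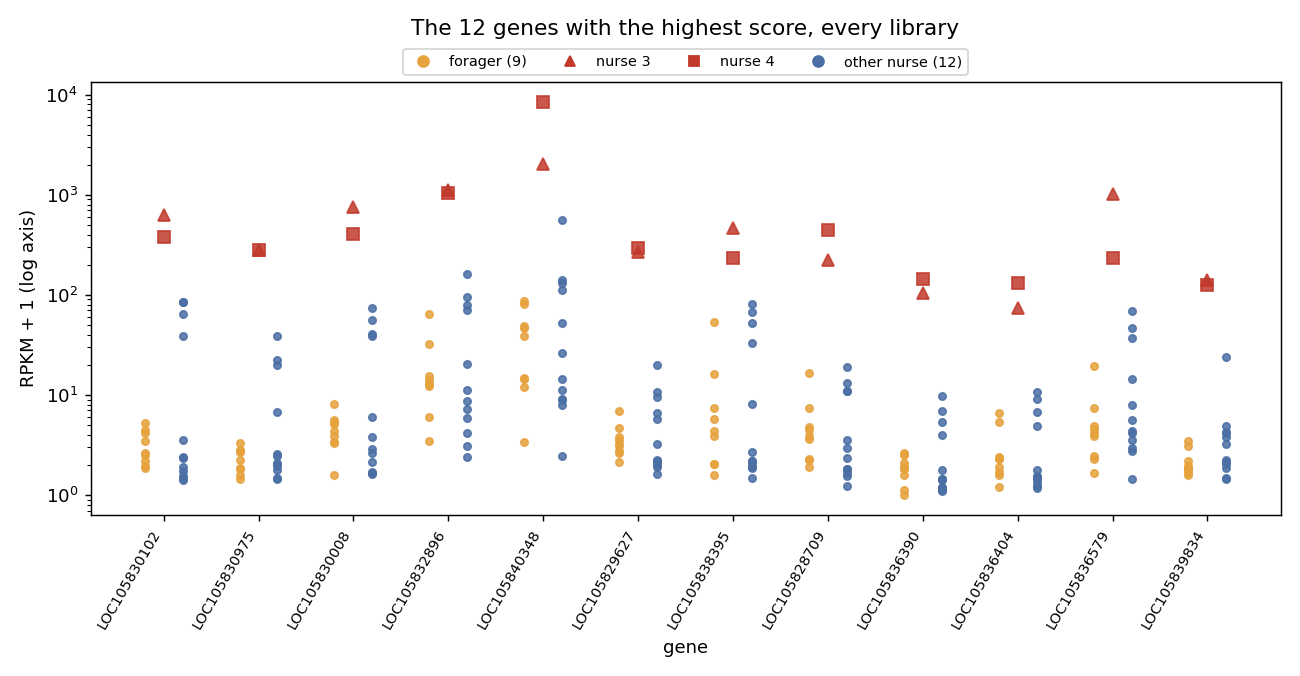
RPKM + 1 on a log axis in every library for the 12 genes with the highest score; triangles are nurse 3, squares nurse 4, blue points the other 12 nurses and orange points the 9 foragers. For each of these genes both red symbols lie above all other points, and a few other nurses lie apart from the rest at intermediate levels.

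LOC105832328 was at 281 RPKM in nurse 3 and 446 in nurse 4, at 0.147 to 93.3 in the other nurses (median 5.47) and at 0.648 to 41.1 in foragers (median 12.4), so its foragers and other nurses overlapped broadly. LOC105833177 was at 78.7 and 81.3 RPKM, and its next highest library was forager 7 with 32. LOC105830103 was at 74.1 and 139 RPKM, with 36.1 in nurse 5 and at most 7.76 in foragers. Others were lower in both. LOC105836200 was at 34.9 RPKM in nurse 3 and 23 in nurse 4, LOC105830080 at 20.1 and 24, and LOC105834607 at 17.3 and 20.4. Their highest values elsewhere were 8.40, 4.40 and 6.64 RPKM, all in nurses.

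Nurse 3 and nurse 4 did not hold the genes in the same proportions. Nurse 3 was the higher library for 21 genes and nurse 4 for 19. In 10 genes nurse 3 was at least 2 times nurse 4, and in 5 genes the reverse held, beside 3.7% and 0.8% of all scored genes. LOC105836580 leaned most to nurse 3, at 619 RPKM against 82.9 in nurse 4, a ratio of 7.47. LOC105836579, at 1025 against 235, had a ratio of 4.37, and LOC105830925 (257 against 78.6) and LOC105837060 (268 against 82.1) both had 3.27. After LOC105840348, those leaning most to nurse 4 were LOC105832316, at 271 RPKM against 109, LOC105836015, at 293 against 123, and LOC105840204, at 59.8 against 25.8.

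Most genes of the set were unmatched in any other library. In 36 of the 40, nurse 3 and nurse 4 both lay above every other library, beside 1.12% of all scored genes, and in 37 above every other nurse, beside 1.88%. In 29 of the 40 the lower of the 2 was at least 2 times every other library, beside 0.545% of all scored genes. The rule chose the genes for this contrast, so nothing is read from these shares. The exceptions to the first count were LOC105836580, where nurse 10 had 89.6 RPKM, LOC105840204, where nurse 5 had 33.1 and nurse 13 had 69.9, LOC105836014, where forager 7 had 111, and LOC105836015, where nurse 7 had 171 and nurse 8 had 144.

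**Figure D3:**
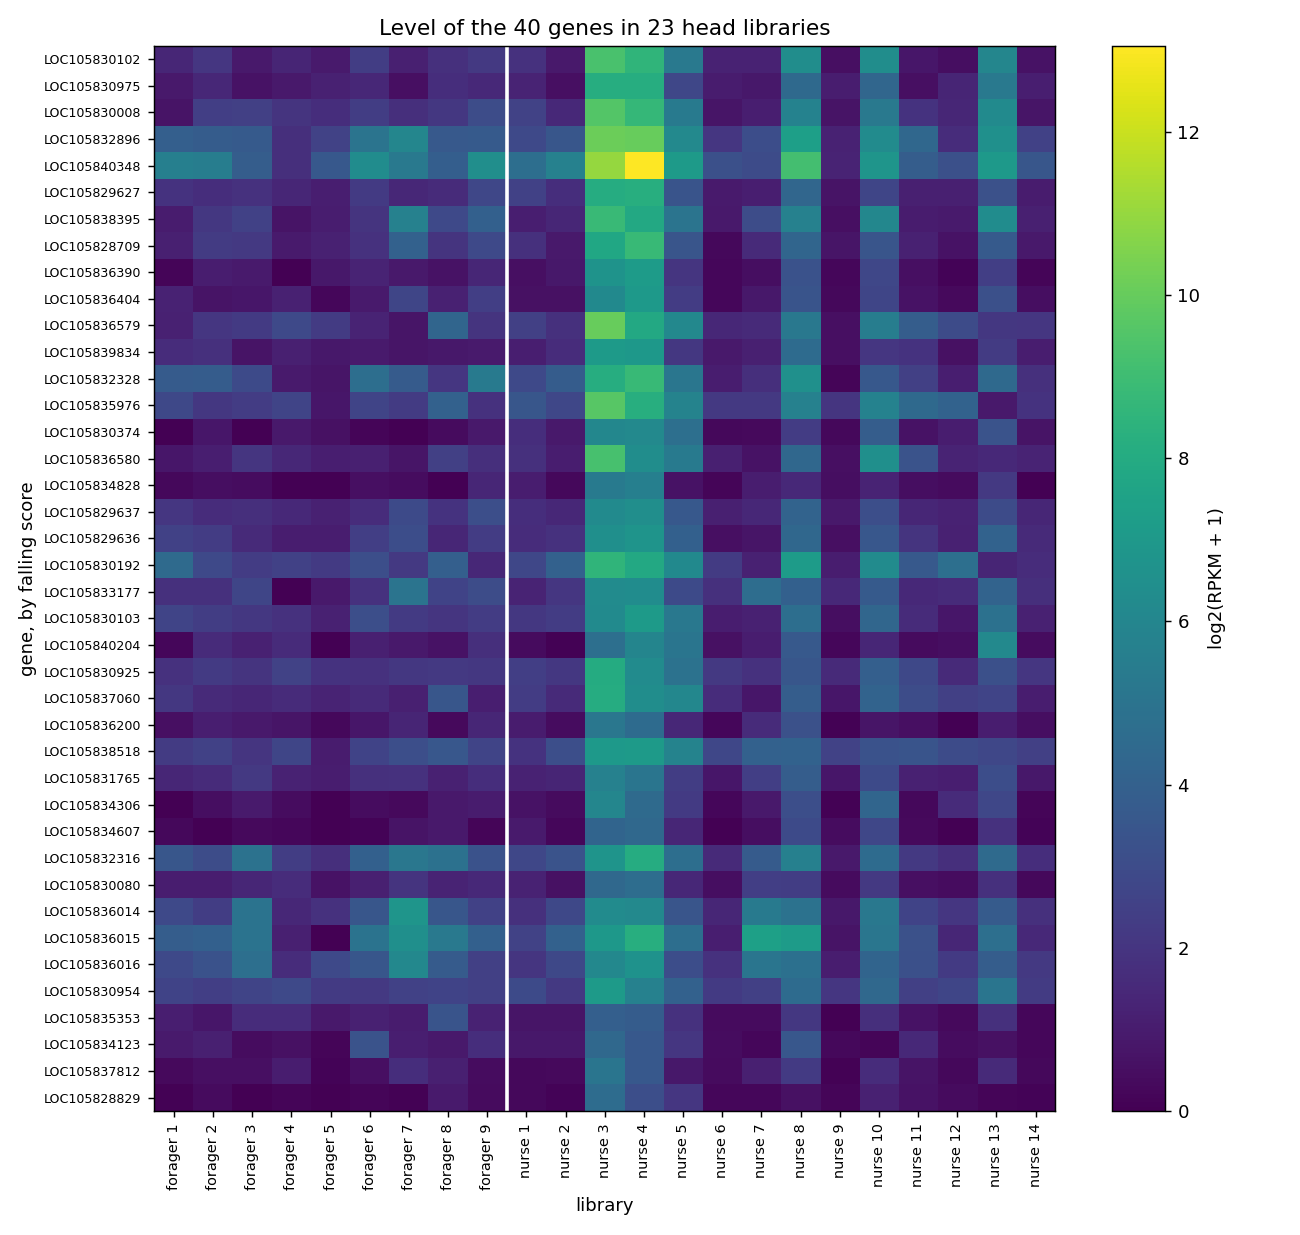
Level of the 40 genes (rows, by falling score) in the 23 libraries (columns), as log2(RPKM + 1); the white line parts foragers from nurses. Nurse 3 and nurse 4 are bright for every gene, nurses 5, 8, 10 and 13 are intermediate for most, and forager 7 stands out for a few genes.

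The remaining 12 nurses were not uniform. The median of the 40 genes was 6.74 in nurse 3 and 6.71 in nurse 4 on the log2(RPKM + 1) scale. It was 4.29 in nurse 8, 3.81 in nurse 5, 3.77 in nurse 10 and 3.17 in nurse 13. The other 8 nurses lay between 0.56 (nurse 9) and 1.77 (nurse 1), and the foragers between 1.01 (forager 5) and 2.03 (forager 9). The same genes thus stood at intermediate levels in 4 further nurses, and in no forager did the median reach the level of any of these 4. The 4 libraries were singled out after their values were seen.

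As a median over the 40 genes, nurse 8 had 22.4% of the lower of nurse 3 and nurse 4, nurse 10 had 17.6%, nurse 5 had 14% and nurse 13 had 11.9%. The other 8 nurses had 0.482 to 2.61% and the foragers 0.788 to 4.67%. Nurse 8 was among the highest 4 of the 12 nurses for all 40 genes, nurse 10 for 36, and nurse 5 and nurse 13 for 32 each. Among all scored genes these shares were 37.5%, 33.3%, 34.4% and 45.3%. Nurse 8 lay above every forager in 34 of the 40 genes, nurse 5 in 26, nurse 10 in 25 and nurse 13 in 20. Of all scored genes, these libraries lay above every forager in 9.05%, 9.98%, 8.39% and 11.4%. The read totals of nurses 5, 8, 10 and 13 were 23.7, 11.5, 12 and 8.99 M reads, within the range of the other nurses; the part of depth in this pattern was not tested.

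**Figure D4:**
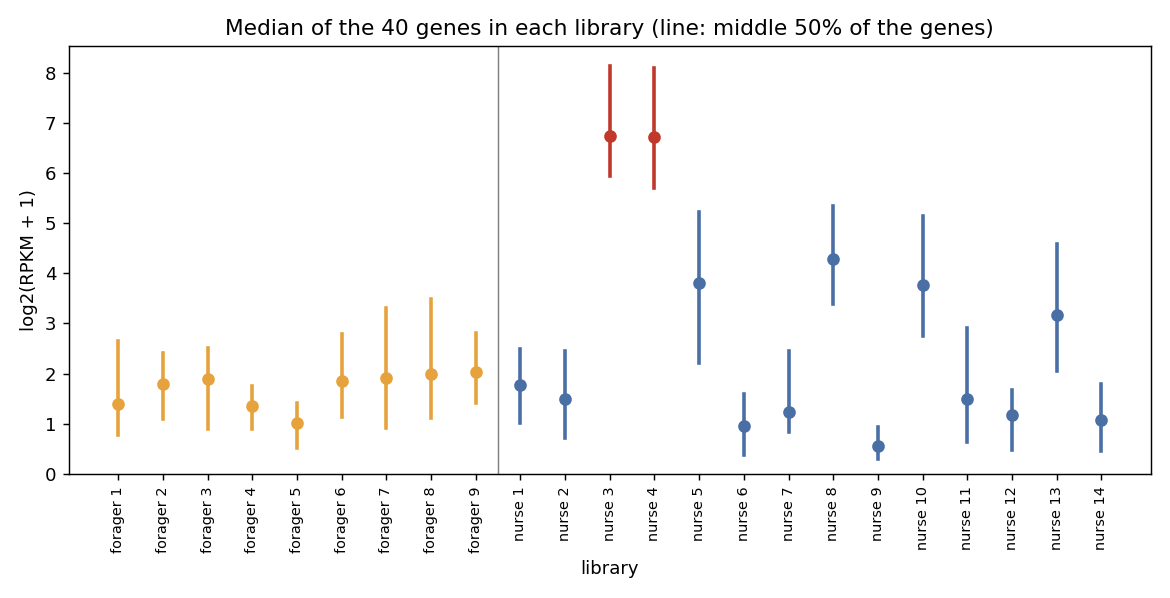
Median of the 40 genes in each library as log2(RPKM + 1), with a line over the middle 50% of the genes; red is nurse 3 and nurse 4, blue the other nurses, orange the foragers. Nurse 3 and nurse 4 stand at 6.74 and 6.71, nurses 5, 8, 10 and 13 between 3.17 and 4.29, and all other libraries at or below 2.03.

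Over the 12 other nurses the levels of the genes co-varied. Pairs of the 40 genes had a median Pearson's r of 0.73 on the log2(RPKM + 1) scale over these 12 libraries, beside 0.16 for pairs of all scored genes. The rule used only the median of the 12, not their order, but the genes were chosen on libraries of the same group. Points of a library share its depth and its normalization, and r is given as a description. Nurses 5, 8, 10 and 13 stood apart from the rest of the 12 in these genes, and r also reflects that split. The value of r without these nurses was not computed. The spread within the 12 nurses was wide, with a median SD of 1.40 for the 40 genes and 0.23 for all scored genes.

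Nurse 13 parted the set. It lay above the median of the 12 other nurses for 35 of the 40 genes and at or below it for 5. LOC105835976 was at 0.872 RPKM in nurse 13, the lowest of the 12, but at 55.6, 53.0 and 53.4 in nurses 5, 8 and 10. LOC105830192 was at 1.51 RPKM there and at 71.5, 142 and 76.4 in the same 3 nurses. LOC105836579 was at 3.39 there and at 67.9, 36.3 and 45.5. The other 2 were LOC105838518, at 5.89 RPKM, and LOC105828829, at 0.136. LOC105840204 did the opposite and peaked in nurse 13, at 69.9 RPKM, above both nurse 3 and nurse 4.

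Foragers were not used to choose the genes, but the median of the other 12 nurses was the reference of the rule. A low median in these nurses raises both the score and a forager difference from it, so this comparison is not independent of the rule. The forager median lay above that of the other 12 nurses for 24 of the 40 genes and for 61.2% of all scored genes. The direction of this difference was thus that of the background. The median difference, foragers minus the other 12 nurses, was 0.23 on the log2(RPKM + 1) scale over the 40 genes and 0.05 over all scored genes. Single genes ran from -0.86 to 1.06. The highest forager stayed under the highest of the other 12 nurses in 36 of the 40 genes, beside 36.2% of all scored genes, and in 27 every forager lay within the range of these nurses, beside 12.3%. Among foragers the median SD was 0.65 for the 40 genes and 0.31 for all scored genes.

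Over the 9 foragers the median Pearson's r between pairs of the 40 genes was 0.22, beside 0.15 for pairs of all scored genes, and 26% of pairs had r above 0.5, beside 21.5%. Without forager 4 and forager 5, which lay farthest from the middle, the medians were 0.07 and 0.10. Without forager 7 they were 0.27 and 0.14. Forager medians rested on 1 to 249 reads per gene, so the lowest genes are at their counting limit there.

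Only in LOC105836014 did a forager pass the high nurses, and in a few other genes a forager came part of the way. LOC105836014 was at 111 RPKM in forager 7, above nurse 3 with 77.1 and nurse 4 with 68.8. LOC105836016 was at 67.0 in forager 7, beside 67.3 in nurse 3 and 101 in nurse 4, and LOC105836015 was at 90.5, beside 123 and 293. Outside this trio, LOC105835353 was at 9.41 RPKM in forager 8 (nurse 4 had 12.8), and LOC105834123 at 8.98 in forager 6 (nurse 4 had 11.3). In these 5 genes a forager came to more than 50% of the lower of nurse 3 and nurse 4; in the other 35 no forager did.

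Another nurse came to 50% or more of that level in 9 genes, 3 of them in common with the 5 above. Beside the genes named before, these were LOC105830192 with 142 RPKM in nurse 8, LOC105837060 with 65.2 in nurse 5, LOC105834306 with 18.1 in nurse 10, LOC105830954 with 33.0 in nurse 13, and LOC105834123 with 10.8 in nurse 8. Their values in nurse 3 and nurse 4 were 374 and 232, 268 and 82.1, 63.1 and 22.2, 137 and 51.6, and 20 and 11.3 RPKM. In these 5 genes nurse 3 and nurse 4 still lay above every other nurse.

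Several of the 40 genes are neighbours in the annotation used for names. Of 35 that could be placed, 10 lie directly beside another gene of the set, and 11 fall into 4 runs. How often genes of other sets of this size lie side by side was not computed, so nothing is read from these counts. The longest run holds LOC105836404, LOC105836390, LOC105840348 and LOC105834828. One gene interrupts it, LOC105840349, which had 0.117 RPKM in nurse 3, 0 in nurse 4 and at most 0.73 in any forager. The gene after LOC105834828, LOC105834848, was at 5.73 and 28.5 RPKM in nurse 3 and nurse 4 and reached 290 in another nurse. On the other side of the run LOC105831265 was at 17.5 and 21.5 RPKM, above the highest other nurse at 5.44 and the highest forager at 10.7, with a score of 2.57 that ranked 51. Genes of the neighbourhood thus differed in whether they were high in nurse 3 and nurse 4.

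Within this run levels differed widely. LOC105836390 was at 104 RPKM in nurse 3 and 144 in nurse 4, at most 8.85 in the other nurses and at most 1.61 in foragers. LOC105836404 was at 72.4 and 129 RPKM, at most 9.62 in the other nurses and at most 5.66 in foragers. LOC105834828 was at 39.9 and 49.1 RPKM, at most 3.52 in the other nurses and at most 1.65 in foragers. In all 4 genes nurse 4 was above nurse 3, and no other library overlapped with them.

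The second run is the pair LOC105836579 and LOC105836580, the genes that leaned most to nurse 3. In nurse 13 they were at 3.39 and 1.84 RPKM, beside medians of 3.98 and 1.66 in the 12 other nurses, and r between them over the 9 foragers was 0.82. The genes on either side, LOC105836574 and LOC105836571, were at 9.95 and 32.7 RPKM in nurse 3 and at 6.69 and 13 in nurse 4, beside medians of 6.67 and 32.9 in the other nurses. The third run is LOC105829636, at 89.9 and 106 RPKM, beside LOC105829637, at 75.2 and 87.7. Both had their next highest value in nurse 8, at 19.7 and 17.1 RPKM.

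The fourth run is LOC105836015, LOC105836016 and LOC105836014, the trio that was also high in forager 7. It was high in nurse 7 as well, at 171, 32.2 and 41.3 RPKM, each the highest of the 12 other nurses. LOC105836014 and LOC105836016 had an r of 0.96 over the 9 foragers, LOC105836014 and LOC105836015 of 0.80, and LOC105836015 and LOC105836016 of 0.74. Forager 7 was the highest forager for 12 of the 40 genes in all, forager 9 for 10 and forager 8 for 9. These shares were not computed over all scored genes, so nothing is read from them. Neighbouring genes may be similar copies that share reads, and an unstranded kit cannot part the reads of genes that overlap, so genes of a run need not be independent observations; this was not tested.

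One gene lies beside a gene that led another pattern of these heads. LOC105830374 was at 65.5 RPKM in nurse 3 and 70.4 in nurse 4, at 0.226 to 25.8 in the other nurses and at no more than 0.858 in foragers, 3 of which were at 0. Its neighbour LOC105830375 was at 598 and 573 RPKM in nurse 3 and nurse 4, within the range of the other nurses, which ran from 19.1 to 1851. Osi6, of the insect Osiris genes, was at 14.1 RPKM in nurse 3, 305 in nurse 4 and 1697 in nurse 13, so its order of libraries was not that of the 40 genes.

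The genes were short. The length recovered from the RPKM values had a median of 1020 bases over the 40 genes, from 513 for LOC105836015 to 9170 for LOC105831765, beside a median of 1983 over the 6308 scored genes with a recovered length. LOC105831765 was at 51.7 RPKM in nurse 3 and 33.3 in nurse 4, with at most 13.6 in any other library. Every value in nurse 3 and nurse 4 rested on at least 105 reads.

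The comparison the study was designed for is that of foragers with nurses. At least 1 RPKM in at least 9 libraries was required for the test, which 35 of the 40 genes met; LOC105830374, LOC105834828, LOC105834306, LOC105834607 and LOC105828829 did not. Of the 35, 4 met it only with nurse 3 and nurse 4 counted, namely LOC105836390, LOC105836200, LOC105834123 and LOC105837812, so they were tested through the libraries that chose them. Of the 35, limma called 0 in either direction at a Benjamini-Hochberg adjusted p under 0.05, where 3.94% of the 9622 genes tested were called. At an unadjusted p under 0.05 there were 7, beside 16.8% of all genes tested. With no filter all 40 were tested and 0 were called, beside 2.72% of all genes. voom on the recovered reads called 0, and gave 0 of the 35 an unadjusted p under 0.05. The nurse side of this contrast holds the libraries the genes were chosen on.

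The fold changes, foragers minus nurses, had a median of -1.05 over the 35 genes on the log2(RPKM + 1) scale, with 34 of them below 0 (these 4 included), beside a median of 0.03 over all genes tested. The lowest adjusted p was that of LOC105838518, with 1.00 to 10.7 RPKM in foragers (median 5.09), 2.82 to 56.9 in the other nurses (median 7.36), and 126 and 140 in nurse 3 and nurse 4. It differed by -1.32 on the log2 scale (SE 0.54, limma adjusted p = 0.190). LOC105830102 had the largest fold change, -1.98 (SE 1.01, limma adjusted p = 0.323).

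Without nurse 3 and nurse 4 the fold change was higher in all 31 genes tested in both fits. The genes were chosen for being high in these libraries, so the shift follows from the rule and nothing is read from it. It brought the fold change nearer to 0 in 27 of the 31 and farther from it in 4. Over the 31 genes then tested the median was -0.28, with 23 below 0, and 0 were called, beside 4.23% of 9533 genes. An unadjusted p under 0.05 was found for 1 of them, LOC105838518, at -0.78 (SE 0.36, limma adjusted p = 0.268), beside 16.7% of all genes. LOC105840348 went from -1.20 (SE 1.09) to -0.18 (SE 0.80), and LOC105828709 from -0.77 (SE 0.85) to 0.14 (SE 0.50). The 4 that moved away from 0 were LOC105832316, from -0.08 (SE 0.71) to 0.54 (SE 0.56), LOC105836016, from -0.04 to 0.44, LOC105836014, from -0.14 to 0.31, and LOC105835353, from 0.10 to 0.52. Across the 33 other settings tried, the count of called genes of the set was 0 each time, and the lowest adjusted p was 0.119 in limma. A p that misses the threshold does not show that foragers and nurses are alike in these genes.

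**Figure D5:**
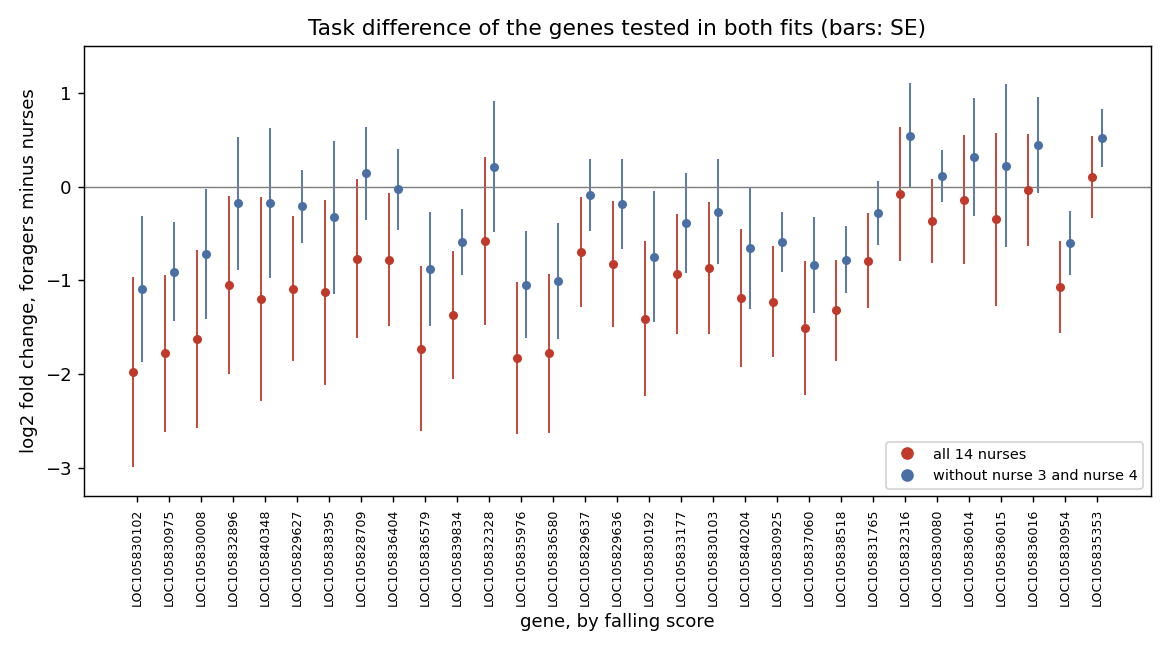
Log2 fold change, foragers minus nurses, with its SE (bars) for the 31 genes tested in both fits, with all 14 nurses (red) and without nurse 3 and nurse 4 (blue). All but 1 of the red points lie below 0. The blue ones are higher for all 31 genes, which follows from the rule. They lie closer to 0 for 27 of the genes and farther from it for 4.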

How the data were processed

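Head RNA of Monomorium pharaonis workers was measured in 9 forager and 14 nurse libraries, grouped by their titles. Libraries were made with a transposase-based unstranded kit, per the labels' protocols. Per the submitters' processing notes the aligner was STAR 2.5.0b. As to the read counter, the genome build and the gene models, none is given in the sources used here. Values were deposited by the authors as RPKM for 12648 genes. RPKM divides reads by gene length and library total, so a very abundant gene pulls down all others of its library.

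Read totals, lengths and whole reads were recovered, since each RPKM value of a gene is a whole number of equal steps. It was assumed that 1 step is 1 read. Lengths were found for 12053 genes. In simulated data of 4000 genes 99.7% of lengths were found, and totals were right to 4.4e-06 percent. These data were built from whole reads for genes with a recovered length, so they cannot check that assumption. Intervals were not computed.

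The 40 genes and every test and list were chosen with earlier results of these data known. All 40 are accounted for. Named with values were the 12 highest by score, those reaching 50% of the lower of nurse 3 and nurse 4 elsewhere, and neighbours of another gene of the set. The 5 on each side of the limit were named with their scores. Others were named after their values were seen. limma was run on log2(RPKM + 1) with task as the term, an intensity trend and Benjamini-Hochberg adjustment over all genes that reached 1 RPKM in 9 or more libraries. In simulated data of 9622 genes this fit found 95.0% of the 100 genes given a 2-fold change and 99.0% of the 100 given a 4-fold change; 7 of its 201 calls were false. Whether these rates hold for the 40 genes was not tested. Among them, LOC105830102 differed by -1.98 on the log2 scale between foragers and nurses (SE 1.01) and was not called (limma adjusted p = 0.323). Names and neighbours came from the RefSeq annotation of ASM1337386v2, which matched 10700 identifiers and left 1948. It has no product names, so no marker or pathway list could be filled. R 4.3.3, limma 3.58.1, Python 3.11.15, NumPy 2.4.6, pandas 2.3.3 and matplotlib 3.10.9 were used.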

Additional observations from a re-analysis of the deposited data

Results flagged for a closer look

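In 6 of 42 measures (the 40 genes, their median and their summed share), 1 forager lay far from the other 8 by Dixon's test of the gap to the nearest library over the range, taken on the log2(RPKM + 1) scale for genes. Chance flags about 1 in 20 groups. Nurses were not put to this test. Forager 8 was high in 3 genes: LOC105837060 at 10.2 RPKM with the next forager at 3.35 (gap over range 0.569), LOC105835353 at 9.41 with the next at 2.20 (0.663), and LOC105828829 at 0.953 with the next at 0.314 (0.592). Forager 9 was high in LOC105834828 at 1.65 RPKM with the next at 0.44 (0.626). Forager 4 was high in LOC105830925 at 4.93 with the next at 3.62 (0.498), and forager 6 in LOC105834123 at 8.98 with the next at 2.31 (0.506). The forager median was 3 reads for LOC105828829 and 1 read for LOC105834828, so their gaps are near the counting limit. For the other flagged genes it was 10 to 63 reads.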

How the results depend on the processing

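Of the 40 genes, 35 stayed among the 40 highest with a pseudocount of 0.1, 36 with 5, 39 under either TMM or median-of-ratios scaling, 40 with a minimum of 1 RPKM, 35 with 20 RPKM, 38 with foragers in the reference, and 31 with the highest other nurse in place of the median. Their median score ran from 3.41 to 5.2, and the median difference of foragers from the other 12 nurses from 0.10 to 0.37, and from 0.16 to 0.34 leaving out 1 forager. None of the 40 was called between foragers and nurses in any of the 33 alternatives. Over all genes, 379 calls became 252 with voom on recovered reads, 74 among libraries numbered 1 to 9 and 67 there with the replicate block; leaving out 1 library gave 207 to 504. The cause was not tested. TMM gave 506 calls and median-of-ratios factors 532, of which 35.6% and 32.3% were higher in foragers in place of 44.6%; median-of-ratios factors gave 172 and 360 calls higher in foragers and nurses in place of 169 and 210. Among libraries 1 to 9 the share was 60.8%, and 65.7% with the block. Same-numbered libraries showed no clear pairing: 4 of 9 pairs had r over 0.1, from -0.33 to 0.42, and 1 forager matched its own number best. Low genes are limited by depth, with forager medians down to 1 read.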
